A study of Mus musculus with 54 samples.

Results

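The cytosolic ribosomal protein genes were followed across 4 groups of laser-captured mouse motor neurons. The set was defined by symbol: protein-coding genes named Rpl or Rps with a number and at most 1 letter, together with Rplp0, Rplp1, Rplp2 and Rpsa, without the Rps6k kinases and without pseudogenes. It held 80 of the 55354 mouse genes in the deposited count table, 49 for the large subunit and 31 for the small subunit. Of the 80, 77 passed the filter on low counts and entered the tests. The 3 that did not were Rpl3l, Rpl10l and Rpl39l. Another 3 genes fitted the symbol pattern but were annotated as pseudogenes and left out (Rps4l, Rpl6l and Rpl32l).

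The study captured oculomotor and trochlear neurons (CN3/4), vagal motor neurons (CN10), hypoglossal neurons (CN12) and spinal motor neurons (SC). Each came from wild-type littermates or from transgenic SOD1G93A mice (labelled mSOD), a model of amyotrophic lateral sclerosis (ALS) that carries a mutant human SOD1 gene, on a postnatal day labelled P56 (before symptoms) or P112 (symptomatic). The 54 Smart-seq2 libraries of polyA RNA formed 16 groups: 5 libraries for each genotype of SC at P56, 5 for wild-type SC at P112, and 3 for every other group. The labels call them biological replicates but do not say which libraries came from the same animal, so p-values measure the spread between libraries. All groups were captured tissue pools, in which fewer cells of a type and less RNA per cell cannot be told apart.

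Library totals ran from 1071477 to 8877994 counts, with a median of 4231342.5. The human SOD1 entry took 3.95 to 7.94% of the counts in the mSOD libraries and at most 0.00459% in the wild-type ones, so genotype matched the label in all 54. The prefix of the library name gives a project. The 22 P11355 libraries include all cranial P56 ones, the 20 P10814 libraries include all cranial P112 ones except 1 (CN12 P112 mSOD replicate 3), and the 12 P6362 libraries are all SC. In the cranial nuclei age and project therefore cannot be told apart. SC wild type held libraries of all 3 projects, which let a project term be fitted. Shifts between P6362 and the other projects were estimated within SC groups, with CN12 P112 mSOD the 1 cranial group of mixed projects. In comparisons with SC these shifts were carried over to the cranial libraries, and whether they hold there was not tested.

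Ribosomal proteins coat the ribosomal RNA of the small subunit, which reads the mRNA, and of the large subunit, which forms the peptide bond. Their mRNAs are among the most abundant in most cells. Many start with a run of pyrimidines at the cap, the terminal oligopyrimidine (TOP) tract, through which mTOR signalling and the RNA-binding protein Larp1 are known to control their translation together.

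The annotated starts of some members named below are printed as examples, from RefSeq's GRCm38.p6 annotation. Each runs from 10 bases before to 20 bases after the start, 5′ to 3′ on the gene's strand. They are not a representative sample of the members, and others named below, such as Rps3 and Rps28, have no tract in the window. Capitals mark a C followed by at least 4 pyrimidines, searched on the sense strand within 10 bases of the start. The first 6 lines have the C of the tract exactly at the start, although in each the base before it is also a pyrimidine. The next 2 have the tract within 10 bases of the start, and the last 2 have none in the window. RefSeq gives Rps21 and Rps27l 2 promoters each, of which the one with a tract is printed and the other has none.
Rps27: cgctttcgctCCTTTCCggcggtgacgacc
Rps6: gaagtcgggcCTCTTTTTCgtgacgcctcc
Rpl38: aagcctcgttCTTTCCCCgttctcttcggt
Rpl35: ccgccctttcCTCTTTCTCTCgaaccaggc
Rps21: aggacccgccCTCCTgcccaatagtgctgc
Rpl15: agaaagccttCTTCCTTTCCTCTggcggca
Rpl12: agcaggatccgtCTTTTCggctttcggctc
Rps27l: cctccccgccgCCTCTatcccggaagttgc
Rpl10: tacagtggaagataggccgcctatataagg
Rps4x: gctgggcggagcaacccaggctccagcgcg

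Of the 80 members, 60 had at least 1 promoter in the RefSeq table, 72 promoters in all. The C of such a tract lay exactly at the start in 13 of these (18.06%), against 2.505% of all 32851 promoters in the table. Within 10 bases such a tract was found in 40 (55.56%), against 30.72% of all. In the promoters of mitochondrial ribosomal proteins 0 of 75 had it at the start, and in those of the nuclear-encoded respiratory chain 4 of 68 (5.882%). An annotated start may differ from the base at which these neurons start the mRNA. Rps27, Rps6, Rpl10 and Rps4x were all higher in CN10 below, and only the first 2 carry the letters of a tract at the annotated start.

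Compared per length of the gene, as RPKM (reads scaled to gene length and library size) in the authors' deposited table, members differed widely in level. The highest medians over the 54 libraries were 1603 RPKM for Rpl38, 1491 for Rpl41 (the smallest ribosomal protein), 1328 for Rps29, 883 for Rplp1 (a stalk protein that contacts elongation factors) and 836 for Rpl35 (at the exit of the peptide tunnel). The lowest were 0 for Rpl10l and Rpl39l, 0.231 for Rpl3l, 57.6 for Rps2 (at the entry of the mRNA channel) and 69.1 for Rpl13a. The 49 large-subunit members had a median of 402.4 RPKM and the 31 small-subunit members 401.1. The ranking depends on the gene lengths behind the RPKM. By counts scaled to library size only, Rpl38, Rpl41, Rps29 and Rplp1 ranked 2, 1, 3 and 5, but Rpl35 ranked 30. Counts and RPKM of Rpl35 imply a length of 235.1 bases, beside 1241 annotated exon bases.

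The paralogs within the set that are named after another member were mostly far below it. Rpl3l, known from skeletal and heart muscle, was seen in 27 libraries with at most 12 counts, while its parent Rpl3 had 322 RPKM. Rpl10l and Rpl39l, known from the male germ line, were each seen in 10 libraries with at most 6 and 19 counts, against 429 RPKM for Rpl10 and 440 for Rpl39. Among these paralogs Rps27l was the exception, at 227 RPKM beside 743 for Rps27. Ribosomal proteins whose symbols fall outside the rule ranged widely too: Fau (the precursor of Rps30) had 843 RPKM, Rpl22l1 632, Rpl36al 487, Rack1 269, Rps3a1 196 and Rpl7l1 8.69. Of these, Rpl22l1 exceeded its parent Rpl22 (90.7 RPKM), while Rpl7l1 lay far below Rpl7 (402). Rpl36al exceeded Rpl36a (301) by RPKM but not by median counts (348 and 443.5).

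The members together took 0.623 to 3.03% of a library's counts, with a median of 1.37%. CN10 stood above the other nuclei. In wild type the summed share was 2.36 ± 0.353% in CN10 (SD, n = 6), 1.44 ± 0.292% in CN12 (n = 6), 1.26 ± 0.204% in CN3/4 (n = 6) and 1.25 ± 0.273% in SC (n = 10). The CN10 wild-type libraries held 1.83, 2.14 and 2.79% at P56 and 2.42, 2.31 and 2.68% at P112, and all 10 SC wild-type libraries lay between 0.623 and 1.63%. CN10 and SC did not overlap.

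In mSOD the shares were 2.04 ± 0.624% in CN10 (n = 6), 1.62 ± 0.205% in CN12 (n = 6), 1.25 ± 0.286% in CN3/4 (n = 6) and 1.27 ± 0.085% in SC (n = 8). The CN10 mSOD libraries ran from 1.28 to 3.03%, and the 3 at P56 (1.28, 1.73 and 1.62%) fell within the range of the other nuclei. Outside CN10 no library exceeded 1.91%. The wild-type libraries of CN12, CN3/4 and SC overlapped. In mSOD, CN3/4 overlapped with both of the others, and CN12 (1.42 to 1.91%) lay above SC (1.11 to 1.36%). Counting error is small beside these spreads: the Wilson 95% interval was 0.616 to 0.631% for the lowest library and 3.01 to 3.04% for the highest. These intervals cover counting error only, since reads without molecular identifiers are not independent molecules.

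**Figure D1:**
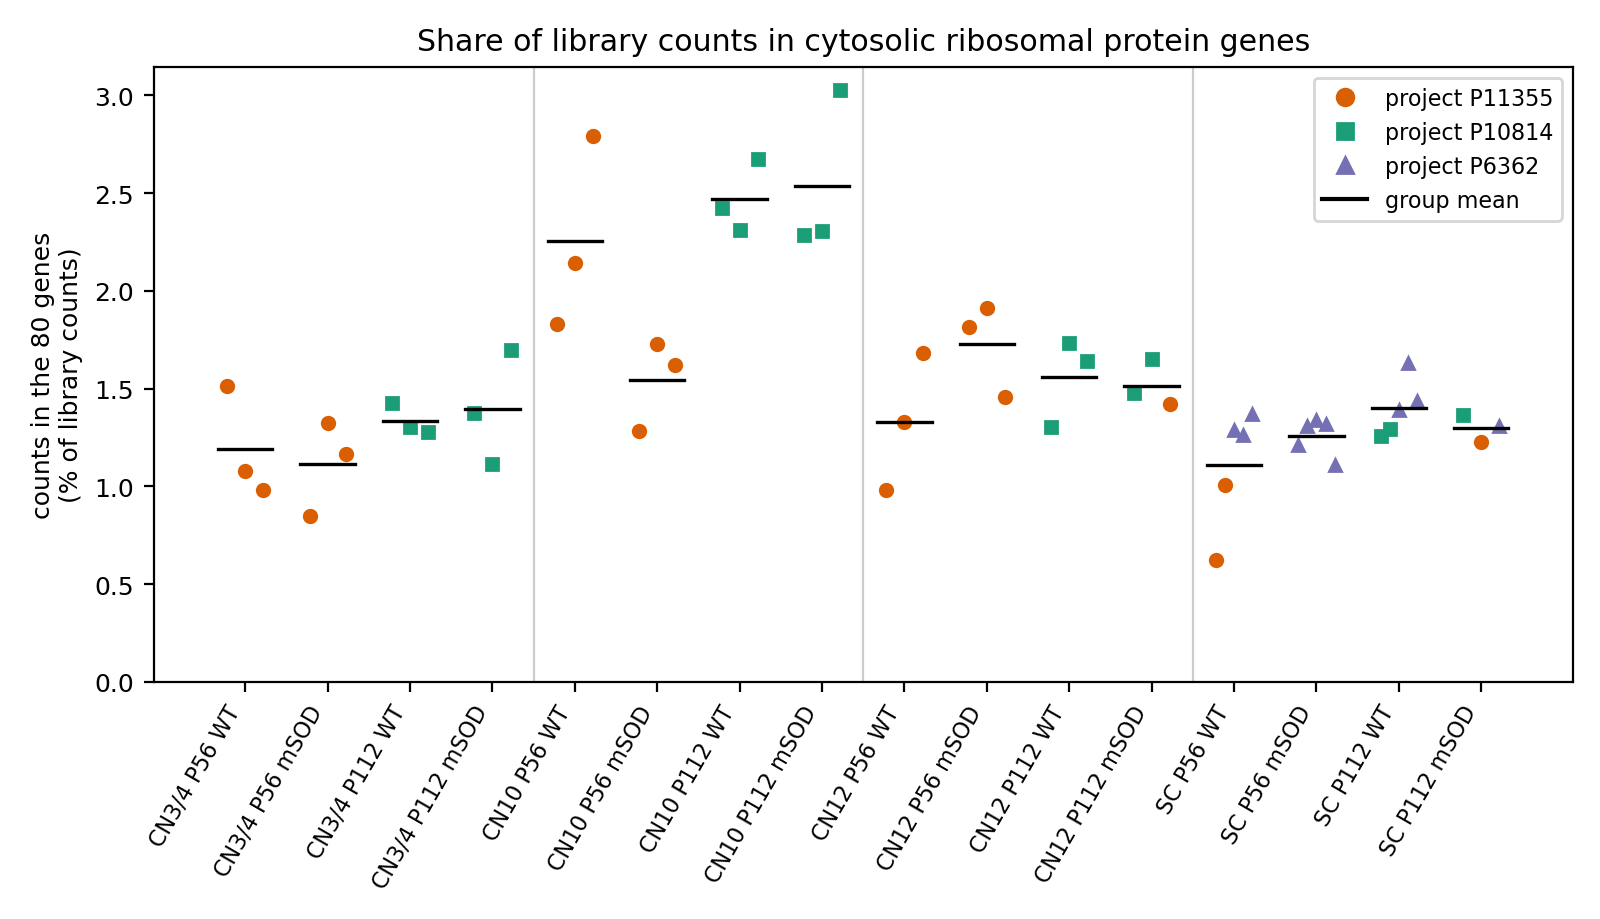
Summed counts of the 80 members as a percentage of each library's counts (vertical axis) in the 16 groups (horizontal axis). Each point is 1 library, its colour and shape give the project, and the line is the group mean. The CN10 wild-type libraries lie between 1.83 and 2.79%, above all SC libraries, and the lowest point of all, 0.623%, is an SC P56 wild-type library of project P11355.

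Gene by gene, 71 of the 77 tested members were higher in CN10 than in SC in wild type and 0 lower (edgeR's quasi-likelihood test, called at an adjusted p under 0.05 over 18493 genes). For comparison, 18.4% of all genes tested were called higher in CN10 and 19.3% lower. The median member was 2.10-fold higher (1.07 on the log2 scale), and the median over all genes tested was -0.01. In 37 members every CN10 library exceeded every SC library, which held for 8.54% of all genes. The comparison averages both ages with equal weight.

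Small-subunit members were all called higher, 31 of 31, with a median of 1.08 and a lowest value of 0.54 on the log2 scale. Rps27, a zinc-finger protein of the small subunit, was first. It had 484 to 958 CPM (counts scaled to the library size with TMM factors) in the 6 CN10 wild-type libraries (median 631), against 103 to 255 in the 10 SC ones (median 145). The libraries did not overlap, and the log2 change was 2.28 ± 0.21 (SE, adjusted p = 1.09e-12, edgeR). Rps26 (1.77 ± 0.23) and Rps28 (3.03-fold), which sit near the exit of the mRNA channel, and Rps12 (1.70 ± 0.26) and Rps19 (1.68 ± 0.25), the latter mutated in Diamond-Blackfan anaemia, were also more than 3-fold higher. Rps27l, the paralog of Rps27, rose by 0.55 ± 0.19 (adjusted p = 0.0192, edgeR), from 54.8 to 124 CPM in SC to 90.0 to 150 CPM in CN10, with overlap.

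Rps6, the substrate of S6 kinase and a common readout of mTOR signalling, was also separated by nucleus. Its 6 CN10 wild-type libraries held 368 to 439 CPM (median 396), and the 10 SC libraries 135 to 227 (median 212). No library of CN12 (208 to 281) or CN3/4 (194 to 301) reached the CN10 range either. Rps6 was called in 9 of the 27 comparisons, more than any other member, followed by Rps27 in 8, Rpl10a in 7 and Rpl26 and Rpl3 in 6 each, although those comparisons share libraries.

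Of the 46 large-subunit members tested, 40 were called higher, with a median log2 change of 0.91. Rpl3, which reaches toward the peptidyl transferase centre, had 470 to 634 CPM in CN10 (median 586) and 110 to 297 in SC (median 230), a log2 change of 1.62 ± 0.15 (adjusted p = 1.41e-12, edgeR). Rpl10, which joins the large subunit last, had 439 to 818 CPM (median 579) against 133 to 252 (median 181), a change of 1.59 ± 0.16 (adjusted p = 1.21e-11, edgeR). Neither gene overlapped between the nuclei. Rpl10a, at the L1 stalk, had 183 to 285 CPM (median 240) against 56.8 to 155 (median 116), again without overlap, while Rpl26 had 283 to 548 (median 386) against 120 to 305 (median 231), which overlapped.

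The stalk that recruits elongation factors was uneven. Rplp1 rose by 1.21 ± 0.21 (log2, adjusted p = 6.85e-06), Rplp2 by 0.89 ± 0.21 (adjusted p = 0.000449) and Rplp0, the anchor of the stalk, by 0.57 ± 0.23 (adjusted p = 0.0475, edgeR). Rpl12, at the base of the stalk, did not pass the test. It had 109 to 168 CPM in CN10 wild type (median 142) and 101 to 231 in SC (median 185), a log2 difference of -0.25 ± 0.15 (adjusted p = 0.204, edgeR), the 1 negative value among the 77. The stalk members and those of the next sentence were set together after their values were seen. Rpl5 (0.57 ± 0.15) and Rpl11 (0.88 ± 0.19), which bind 5S ribosomal RNA and, when free, Mdm2, were both called higher.

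The other 5 members that were not called were Rpl13a (0.56, adjusted p = 0.0544), Rpl39 (0.43, adjusted p = 0.147), Rpl7a (0.33, adjusted p = 0.108), Rpl15 (0.27, adjusted p = 0.176) and Rpl29 (0.26, adjusted p = 0.479, edgeR). All were large-subunit genes with positive values. Rpl39, which lines the peptide tunnel, varied widely between SC libraries, from 85.4 to 427 CPM, and overlapped the CN10 range of 218 to 459.

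**Figure D2:**
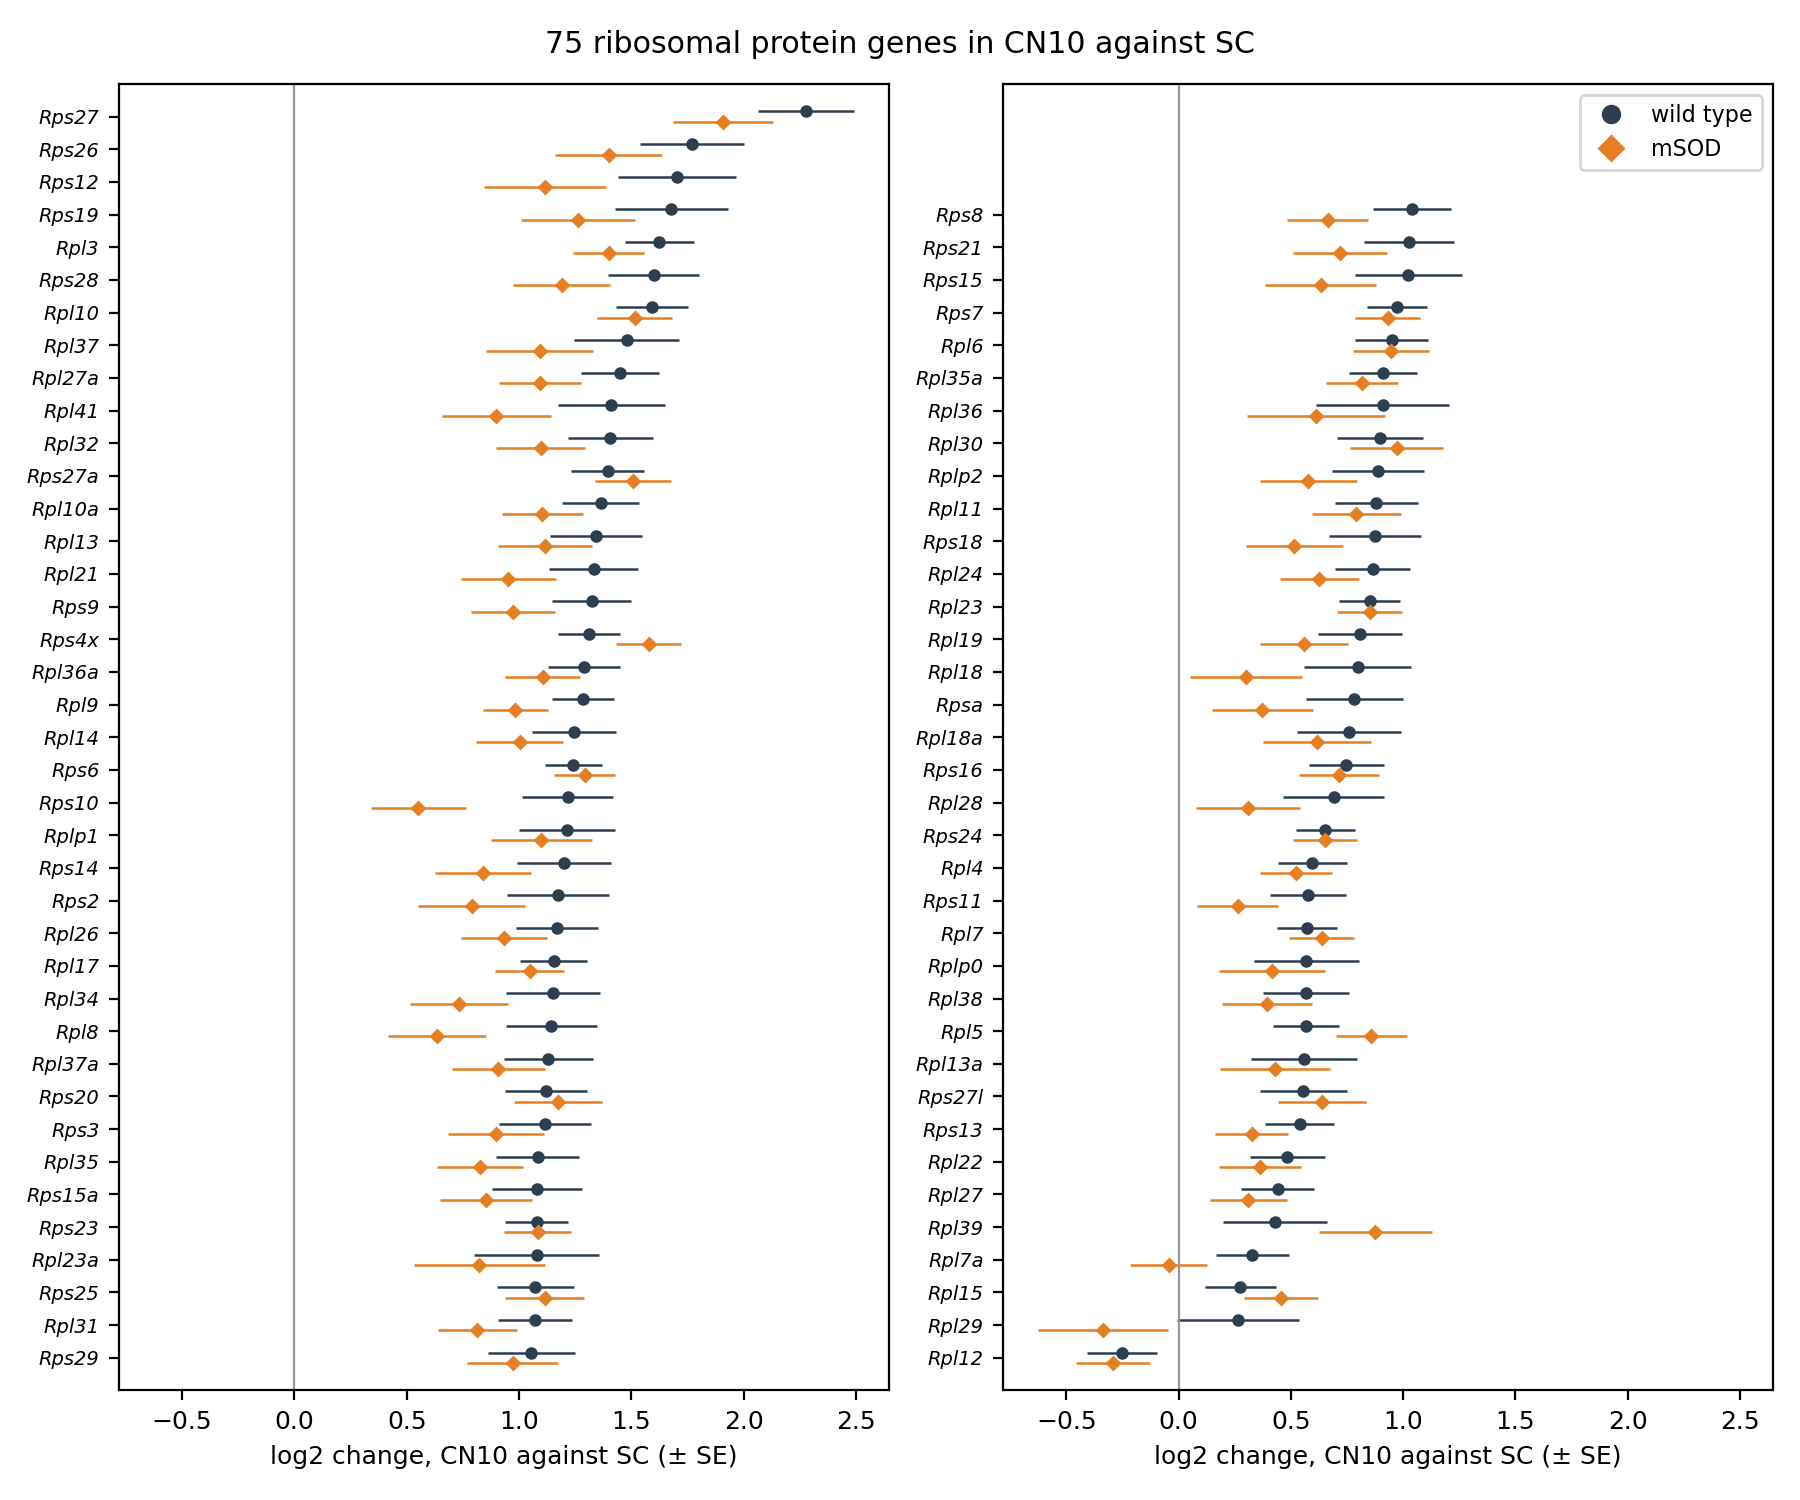
The log2 difference between CN10 and SC (horizontal axis) for 75 of the 77 tested members, ordered by the wild-type value over both panels (vertical axis). Circles are wild type, diamonds mSOD and bars the standard error. Rps27 leads at 2.28 in wild type and Rpl12 is last at -0.25.

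The mSOD comparison shares no library with the wild-type one but shares its fit, with the same project terms, so the 2 are not independent. Of the 8 SC mSOD libraries, 6 were of project P6362, which holds no CN10 library. In mSOD 62 members were called higher and 0 lower in CN10 than in SC, against 14.1% of all genes called higher. The median member was 1.79-fold higher (0.84 on the log2 scale, all genes -0.05), and 23 members did not overlap, against 7.09% of all genes. Both genotypes called 60 members, which is 84.5% of the wild-type calls and 96.8% of the mSOD calls. Rps4x, the X-linked Rps4, had the smallest p: 304 to 444 CPM in the 6 CN10 libraries (median 344) and 101 to 140 in the 8 SC libraries (median 128), a log2 change of 1.58 ± 0.14 (adjusted p = 9.45e-13, edgeR). Rpl10 changed by 1.51 ± 0.17 and Rps6 by 1.29 ± 0.14. The values below 0 were those of Rpl7a at -0.04, Rpl12 at -0.29 and Rpl29 at -0.34, and none of these 3 was called.

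The difference between CN10 and SC was itself compared between genotypes, an addition made after the calls above were seen. No member was called (0 of 77, edgeR, with 2 at an unadjusted p under 0.05, and 0 with DESeq2), against 0.768% of all genes. The median difference was -0.23. The smallest p belonged to Rps10, at -0.67 ± 0.24 (adjusted p = 0.183, edgeR).

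Set against the other cranial nuclei in wild type, also an addition, CN10 was again higher. Of the 77 members, 71 were called higher than in CN3/4 (18.9% of all genes; median 0.83) and 62 higher than in CN12 (14.4% of all genes; median 0.67), and 0 were lower in either. Libraries did not overlap for 49 and 35 members, against 11.4% and 9.49% of all genes. Rpl10 differed from CN3/4 by 1.62 ± 0.15 and from CN12 by 1.32 ± 0.14, and Rpl3 by 1.37 ± 0.14 and 1.22 ± 0.14. The Rpl10 ranges were 168 to 225 CPM in CN3/4 and 163 to 280 in CN12, below the lowest CN10 library. The 3 comparisons share the CN10 libraries.

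CN10 and SC could be compared within the 2 projects that hold both, each time against 2 SC wild-type libraries. Within P11355 (P56), 56 of the 79 members tested there were called higher than in SC (median 1.31), against 10.6% of all genes in that fit. Within P10814 (P112), 55 of 77 were (median 0.84), against 9.94% of all genes. The 2 SC wild-type libraries of P11355 held 0.623 and 1.005% member counts, and the former was the lowest of all 54 libraries. With that library left out of the fit of all projects, 64 members were called higher in CN10. The fit within P11355 was not repeated without it, so its median of 1.31 rests partly on that library.

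CN12 and SC differed less in wild type. Only 6 members were called higher and 0 lower, against 2.97% of all genes called higher, and the median was 0.39. Among them were Rps6 (0.55 ± 0.13, adjusted p = 0.00407), Rpl10a (0.61 ± 0.17), Rpl9 (0.47 ± 0.14), Rps27 (0.65 ± 0.21) and Rpl36a (0.50 ± 0.16). Rpl9 held 195 to 297 CPM in CN12 (median 261) and 133 to 248 in SC (median 204), with overlap. Just 3 members, Rps27a, Rps23 and Rpl17, did not overlap, against 0.833% of all genes. The count rested on single libraries: it was 1 without CN12 P112 wild-type replicate 2 and 14 without CN12 P56 wild-type replicate 1, and 0 within P11355 or P10814 (edgeR, 23 and 4 at an unadjusted p under 0.05), where 0.969% and 0.904% of all genes were called.

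In mSOD, CN12 exceeded SC in 42 members and none was lower, against 7.33% of all genes called higher. The median member was 1.48-fold higher (0.56 on the log2 scale), and 12 members did not overlap (1.71% of all genes). Rps6 (220 to 318 CPM against 149 to 212) changed by 0.77 ± 0.14 (adjusted p = 8.65e-05, edgeR), Rps4x (187 to 222 against 101 to 140) by 0.79 ± 0.15 (adjusted p = 0.000156, edgeR), and Rplp1 (349 to 639 against 209 to 350) by 1.05 ± 0.23 (adjusted p = 0.00119, edgeR). Of these 3, only Rplp1 overlapped, and by less than 1 CPM. Without the project term 16 members were called, and 2 of the 8 SC mSOD libraries share a project with the cranial ones.

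That 42 were called in mSOD and 6 in wild type does not by itself show a difference between genotypes. Tested directly, 0 members differed (edgeR, with 4 at an unadjusted p under 0.05, and 1 with DESeq2), against 0.768% of all genes, and the median difference was 0.22. Rpl12 came closest, at 0.67 ± 0.19 (adjusted p = 0.0739, edgeR), and it is the member DESeq2 called. Its CN12 libraries held 98.8 to 149 CPM in wild type and 141 to 196 in mSOD, while SC held 101 to 231 and 119 to 204.

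Few members differed between CN3/4 and SC. In wild type 3 members were called higher and 2 lower, against 6.76% and 8.77% of all genes, with a median of 0.20, and in mSOD 4 higher and 1 lower, against 2.43% and 5.03%, with a median of 0.15. Rps6, Rps27 and Rpl12 were called in both genotypes, 60% of the calls of each. No member had all CN3/4 libraries above all SC libraries in either genotype (1.9% and 1.99% of all genes did).

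Of the 77 members, 63 had positive values in wild type and 62 in mSOD. Rpl12 was the only member called lower in both genotypes. CN3/4 held 85.1 to 109 CPM in wild type (median 96.4) and SC 101 to 231 (median 185). The ranges overlapped slightly, and the log2 change was -0.79 ± 0.15 (adjusted p = 0.000173, edgeR). In mSOD the values were 70.0 to 113 CPM (median 83.8) against 119 to 204 (median 169), with no overlap, and the change was -0.81 ± 0.16 (adjusted p = 0.000566, edgeR). Within P10814 the wild-type change was -0.92 (adjusted p = 0.0109) and within P11355 -0.61 (adjusted p = 0.222, edgeR).

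Rps27l was also lower in CN3/4 wild type, at 44.2 to 57.5 CPM against 54.8 to 124 in SC (-0.65 ± 0.19, adjusted p = 0.0138, edgeR), while its parent Rps27 was higher (0.62 ± 0.21, adjusted p = 0.030, edgeR), at 161 to 250 CPM against 103 to 255. Both overlapped. Rps6 was called higher in wild type too (0.47 ± 0.13), and Rps27a (0.51 ± 0.17), which is made as a fusion to ubiquitin, in mSOD. The calls of Rps6 and Rps27 were lost without some single libraries, Rps6 for instance without CN3/4 P56 wild-type replicate 1. Within P11355 no member was called (edgeR, 8 at an unadjusted p under 0.05; 4.53% of all genes called), and within P10814 1 was (3.84%).

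**Figure D3:**
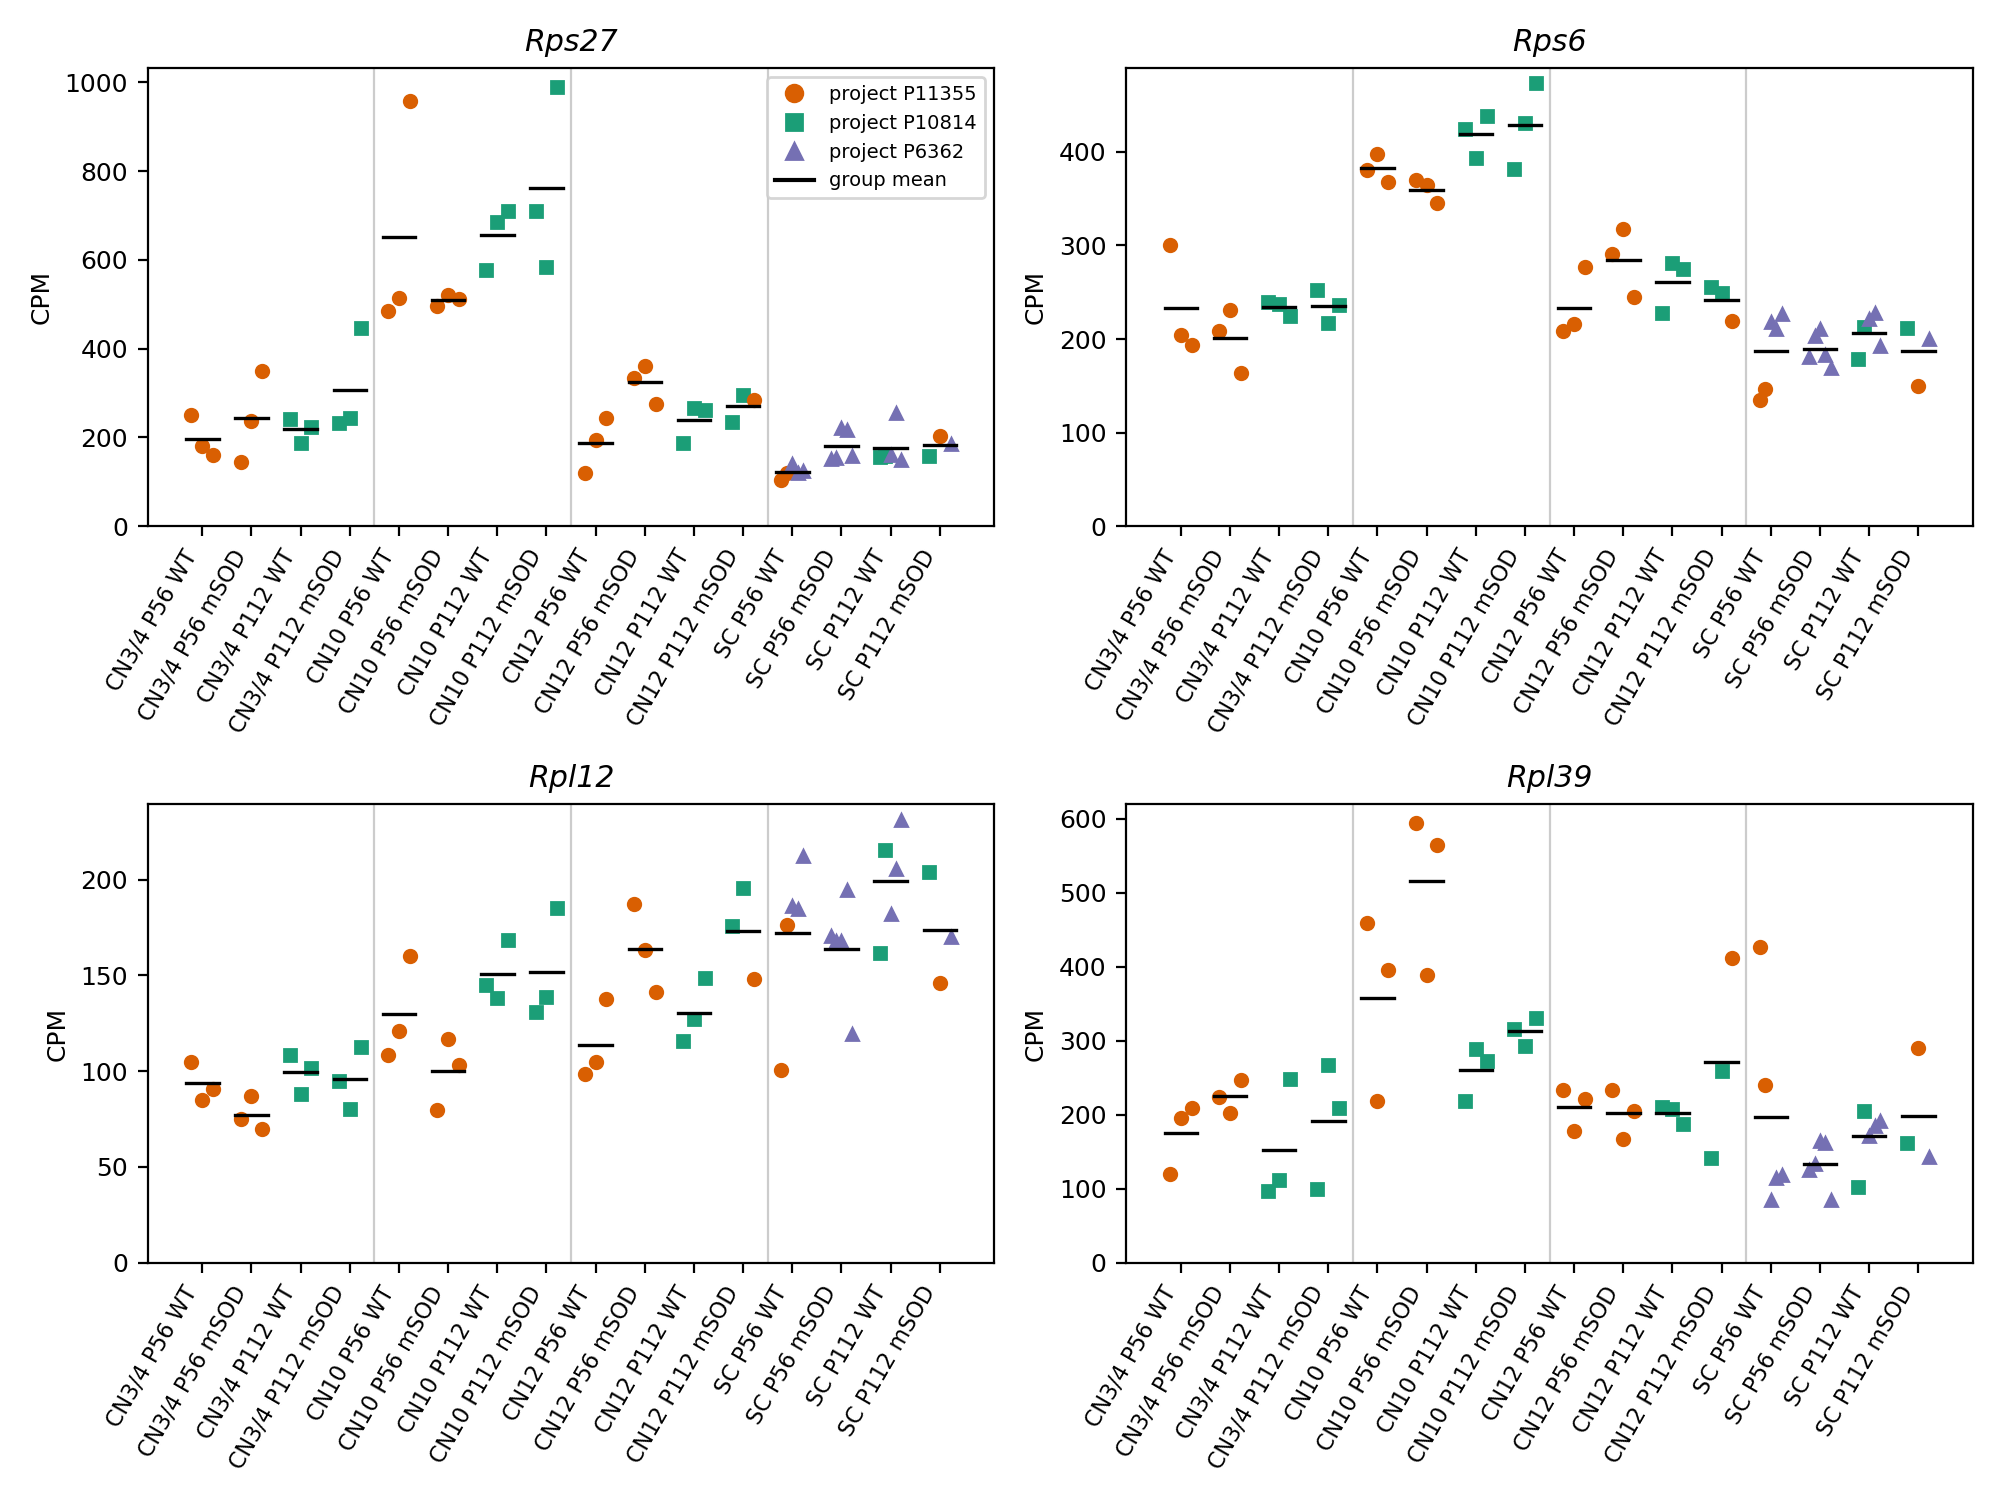
CPM (vertical axis, linear from 0) of Rps27, Rps6, Rpl12 and Rpl39 in every library of the 16 groups (horizontal axis). Each point is 1 library, coloured by project. Rps27 and Rps6 are high in CN10, Rpl12 is low in CN3/4 (70.0 to 113 CPM over both genotypes), and Rpl39 spreads from 85.4 to 427 CPM within SC wild type.

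Between mSOD and wild type of the same nucleus and age, no member was called in any of the 8 comparisons by edgeR's quasi-likelihood test or by DESeq2. The same edgeR test called few genes of any kind: 0.0% at P56 and 0.0% at P112 in CN3/4, 0.0162% and 0.0% in CN10, 0.00541% and 0.0703% in CN12, and 0.541% and 0.47% in SC. Read against this background, a count of 0 says little about the members in the cranial nuclei.

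CN10 at P56 and CN12 at P56 had the medians farthest from 0, in opposite directions. In CN10 P56 the median member was -0.41 on the log2 scale in mSOD against wild type (all genes -0.04). Of the 77, 7 had positive values, and 30 had an unadjusted p under 0.05, which 13.4% of all genes had. Rpl18 had the smallest p, with 134, 191 and 194 CPM in wild type and 37.1, 140 and 108 in mSOD. The libraries overlapped, and the difference of -0.87 ± 0.31 did not pass (adjusted p = 0.278, edgeR). The summed share was 1.83, 2.14 and 2.79% in wild type and 1.28, 1.73 and 1.62% in mSOD.

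In CN12 P56 the median was 0.45 (all genes -0.02). Of the 77, 75 had positive values and 37 an unadjusted p under 0.05 (9.73% of all genes). The smallest adjusted p among the members was 0.427 (edgeR), so none passed the adjustment over all genes. The summed share was 0.981, 1.33 and 1.68% in wild type and 1.82, 1.91 and 1.46% in mSOD, which overlapped.

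At P112 the medians were 0.17 in CN10 (1 member at an unadjusted p under 0.05, 3.62% of all genes) and 0.16 in CN12 (1 member, 4.38%). Rps23, in the decoding site, held 305, 330 and 356 CPM in CN10 wild type and 414, 409 and 471 in mSOD, without overlap (0.39 ± 0.18, adjusted p = 1.0, edgeR). Rpl12 held 116, 127 and 149 CPM in CN12 wild type and 176, 196 and 148 in mSOD, with overlap (0.53 ± 0.21, adjusted p = 0.962, edgeR).

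CN3/4 medians were 0.02 at P56 (0 members at an unadjusted p under 0.05, 3.2% of all genes) and 0.14 at P112 (2 members, 3.17%). Rps27l held 53.1, 55.4 and 55.2 CPM in P56 wild type and 70.1, 65.8 and 73.1 in mSOD (0.35 ± 0.24, adjusted p = 1.0, edgeR). Rps27a held 170, 192 and 224 CPM in P112 wild type and 241, 217 and 344 in mSOD (0.46 ± 0.21, adjusted p = 1.0, edgeR). Rps27l did not overlap between genotypes and Rps27a did.

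Spinal neurons, the group most affected in this model, had medians of 0.13 at P56 (7 members at an unadjusted p under 0.05, 12% of all genes) and 0.07 at P112 (0 members, 9.87%). Rpl36a held 70.4, 62.0, 65.1, 63.4 and 52.8 CPM in P56 wild type and 75.4, 91.0, 94.3, 73.4 and 75.6 in mSOD. Every mSOD library was above every wild-type one, and the difference of 0.50 ± 0.18 did not pass (adjusted p = 0.192, edgeR). At P56 all 5 mSOD libraries were of project P6362, as were 3 of the 5 wild-type ones. Rpl9 held 205, 212, 187, 248 and 204 CPM in P112 wild type and 249, 204 and 262 in mSOD, with overlap (0.28 ± 0.16, adjusted p = 0.618, edgeR).

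**Figure D4:**
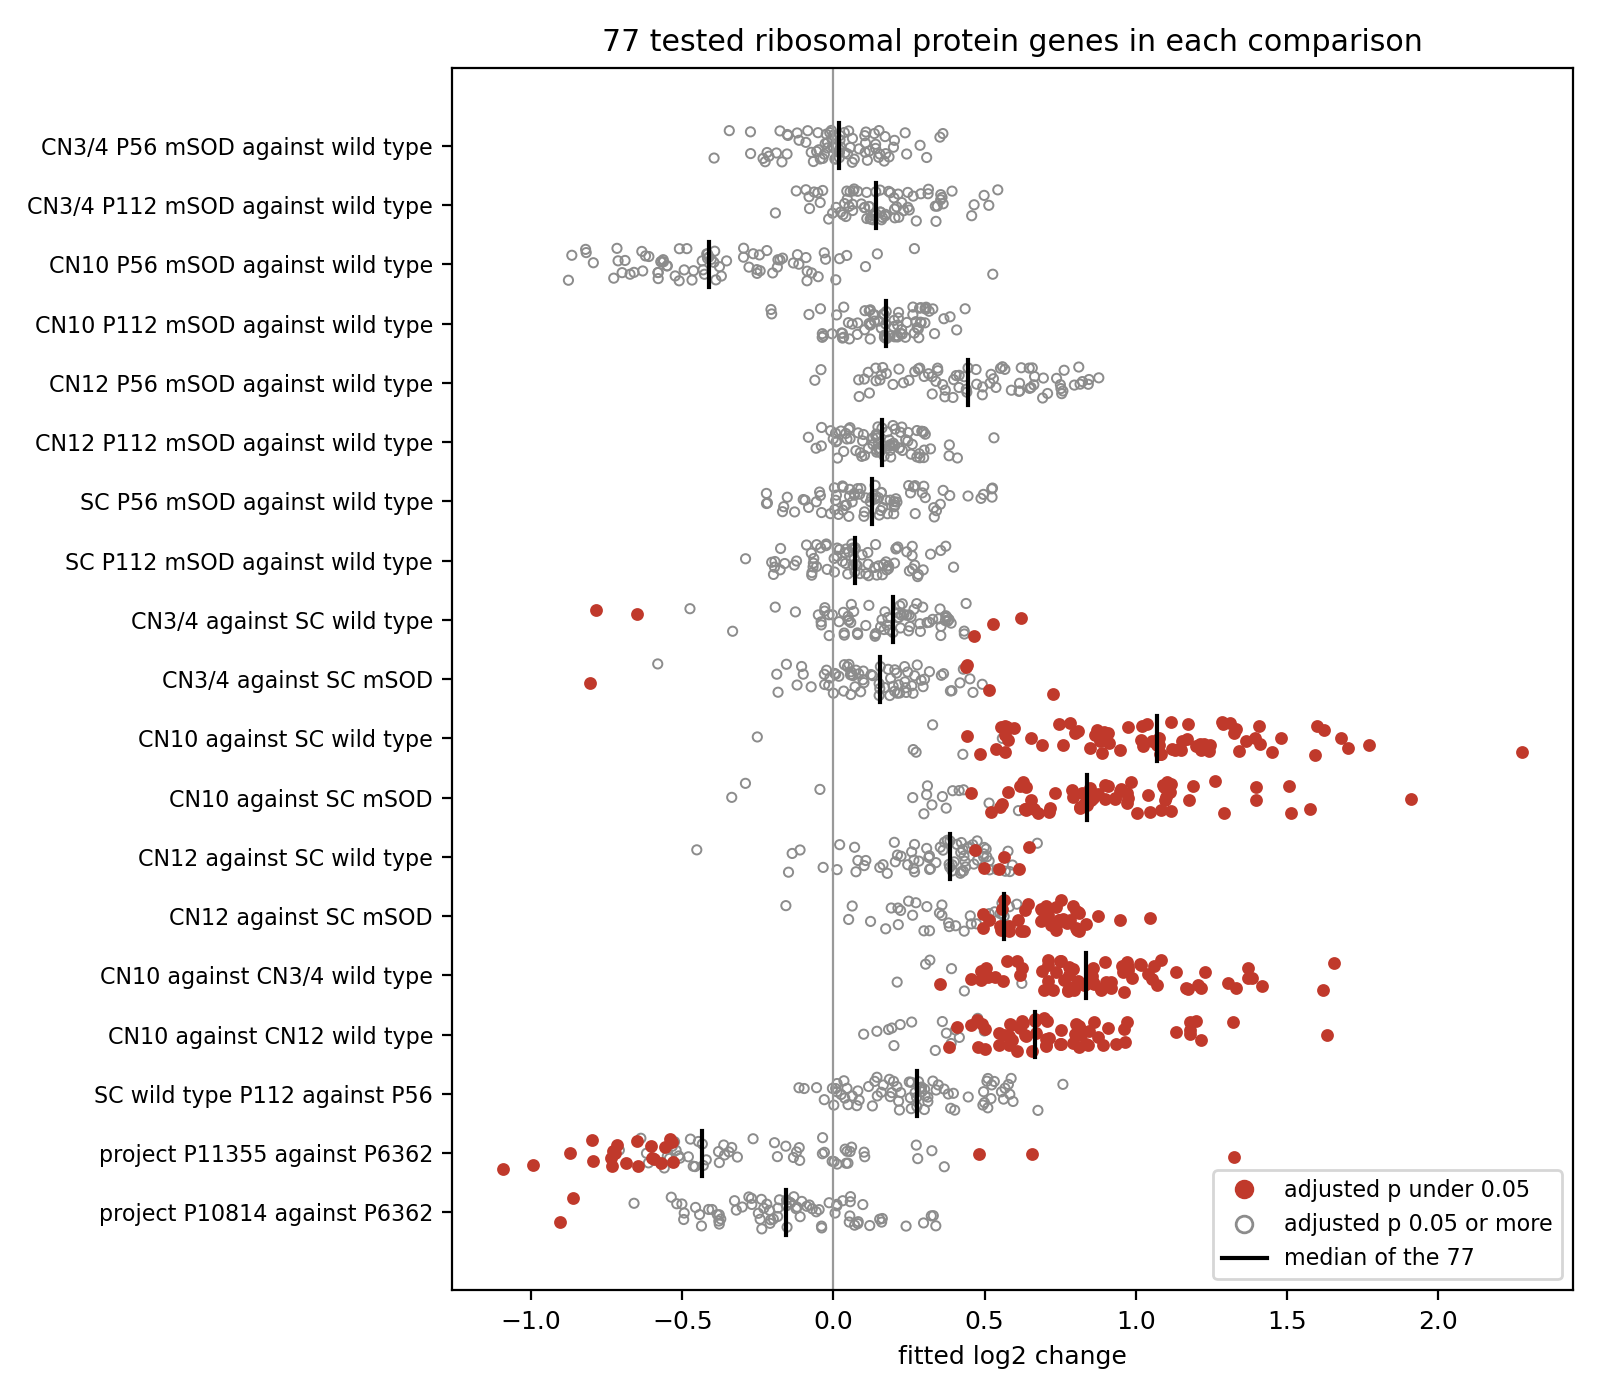
The log2 change (horizontal axis) of each of the 77 tested members in 19 comparisons (rows). Each point is 1 member, spread vertically for visibility. Red points have an adjusted p under 0.05 and the black bar is the median. The CN10 against SC rows lie to the right with 71 and 62 red points, and no genotype row has a red point.

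The genotype difference at P112 was set against that at P56 within each nucleus, and 0 members were called in any of the 4 tests (edgeR and DESeq2). Of all genes 0.0% were called in CN3/4, 0.0% in CN10, 0.0216% in CN12 and 0.00541% in SC. CN10 had the largest median, 0.57, with 75 positive values and 26 members at an unadjusted p under 0.05 (7.84% of all genes). Rps28 led, at 265, 278 and 576 CPM in wild type and 180, 252 and 249 in mSOD at P56, and 320, 331 and 432 against 412, 396 and 627 at P112. The genotypes overlapped at P112 and not at P56, and the difference of differences was 1.12 ± 0.36 (adjusted p = 0.467, edgeR).

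The other 3 medians were 0.15 in CN3/4 (0 members at an unadjusted p under 0.05, 2.34% of all genes), -0.28 in CN12 (2 members, 3.36%) and -0.09 in SC (2 members, 6.38%; Rpl27 -0.64 ± 0.29, adjusted p = 0.746, edgeR). Between spinal and eye-movement neurons, the genotype difference had a median of 0.10 at P56 and -0.09 at P112 (Rps27a -0.58 ± 0.28, adjusted p = 0.705, edgeR). No member was called at either age by edgeR or DESeq2, with 0 and 1 at an unadjusted p under 0.05 (6.18% and 6.97% of all genes), and 0.00541% of all genes were called at each.

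Age could be compared in SC wild type, where project P6362 held 3 libraries of each age; the other 2 libraries of each age were of P11355 at P56 and of P10814 at P112. No member was called (edgeR and DESeq2), as no gene was (0.0%). The median was 0.28 toward P112 (all genes 0.01), with 72 of 77 values positive and 16 members at an unadjusted p under 0.05 (8.51% of all genes). Within P6362 alone 0 were called (edgeR, 17 at an unadjusted p under 0.05), against 0.118% of all genes. Rps10, which sits at the head of the small subunit, held 15.8, 21.8, 20.3, 19.0 and 18.9 CPM at P56 and 24.5, 29.8, 39.1, 38.7 and 33.4 at P112. The ages did not overlap, and the change was 0.76 ± 0.23 (adjusted p = 0.252, edgeR).

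The members also moved with the project. Relative to P6362, P11355 libraries of the same group had 3 members higher and 21 lower, against 11.3% and 10.2% of all genes, and a median of -0.43 (all genes 0.03). Rpl35 held 54.4 and 128 CPM in the 2 P11355 libraries of SC P56 wild type and 271, 219 and 234 in the 3 of P6362, a change of -1.09 ± 0.21 (adjusted p = 0.000150, edgeR). Rps3, at the mRNA entry, held 59.5 and 137 against 248, 190 and 227 (-0.99 ± 0.23, adjusted p = 0.00151, edgeR), and Rpl3 changed by -0.65 ± 0.17. Rpl39 went the other way, with 427 and 240 CPM against 85.4, 115 and 119 (1.32 ± 0.26, adjusted p = 0.000233, edgeR), as did Rpl30 (0.66 ± 0.21) and Rps13 (0.48 ± 0.17). None of the libraries shown for Rpl35, Rps3 and Rpl39 overlapped between projects. The count was 2 without SC P56 wild-type replicate 1, and ran up to 33 without replicate 2 of that group.

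P10814 differed less from P6362, with 0 members higher and 2 lower (0.854% and 1.75% of all genes) and a median of -0.16. Rps21 held 95.9 and 132 CPM in the P10814 libraries of SC P112 wild type and 173, 260 and 203 in those of P6362 (-0.91 ± 0.22, adjusted p = 0.0120, edgeR). Rpl38 held 337 and 385 against 553, 732 and 665 (-0.86 ± 0.21, adjusted p = 0.0125, edgeR). Neither overlapped, and both calls were lost without SC P112 wild-type replicate 1. Outside the members, P11355 against P6362 gave 10 higher and 31 lower of the 76 nuclear-encoded respiratory chain genes (median -0.42) and 6 higher and 16 lower of the 77 mitochondrial ribosomal protein genes (median -0.32).

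The summed share fell as the share of mitochondrial transcripts rose. To keep 1 from diluting the other, the members were taken as a percentage of the counts that were not mitochondrial. Across the 12 CN10 libraries Pearson's r with the mitochondrial percentage was -0.957 (permutation p = 1e-05, the smallest that 100000 permutations can give; adjusted over the 10 relations computed, 0.0001) and Spearman's rho -0.972 (permutation p = 1e-05, adjusted 0.0001). Without the 2 libraries farthest from the median r was -0.938. Within P11355 r was -0.976 (n = 6, exact permutation p = 0.00139, adjusted 0.00278; rho -1.0, exact p = 0.00278, adjusted 0.00556) and within P10814 -0.929 (n = 6, exact permutation p = 0.00972, adjusted 0.0139; rho -0.943, exact p = 0.0167, adjusted 0.0278). These relations and those below pool wild-type and mSOD libraries, and those over all projects also pool ages. In the P11355 CN10 libraries the genotypes overlapped in neither share (members 2.02 to 2.985% in wild type, 1.445 to 1.925% in mSOD). There a difference between genotypes and a relation within them cannot be told apart.

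The relation was similar in CN12 over 12 libraries (r = -0.937, permutation p = 2e-05, adjusted 0.0001; rho = -0.916, permutation p = 0.00012, adjusted 0.0004; r = -0.834 without the 2 farthest). Within P11355, 7 CN12 libraries gave r = -0.977 (exact permutation p = 0.000198, adjusted 0.000661), rho = -1.0 (exact p = 0.000397, adjusted 0.000992) and r = -0.943 without the 2 farthest, and P10814 held too few CN12 libraries. In CN3/4 (12 libraries) r was -0.821 (permutation p = 0.0007, adjusted 0.00175), rho -0.902 (permutation p = 0.00011, adjusted 0.0004) and r without the 2 farthest -0.773. Within its projects CN3/4 gave r = -0.898 for P11355 (n = 6, exact permutation p = 0.0139, adjusted 0.0174; rho -0.829, exact p = 0.0583, adjusted 0.0811) and -0.600 for P10814 (n = 6, exact permutation p = 0.224, adjusted 0.248; rho -0.771, exact p = 0.103, adjusted 0.114). Without the 2 farthest of 6 libraries these became -0.485 and -0.232, and those of CN10 -0.962 for P11355 and -0.731 for P10814.

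In SC the relation was weaker. It was examined within P6362 only, since P11355 and P10814 held 3 SC libraries each. Over 18 libraries r was -0.720 (permutation p = 0.0022, adjusted 0.00367) but rho -0.449 (permutation p = 0.0649, adjusted 0.0811), and r fell to -0.458 without the 2 farthest libraries. Within the 12 P6362 libraries r was -0.261 (permutation p = 0.428, adjusted 0.428; rho -0.126, permutation p = 0.701, adjusted 0.701; r without the 2 farthest -0.268). The SC P56 wild-type library with the lowest member share had 15.2% mitochondrial counts.

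The mitochondrial shares of the CN12 and CN10 libraries at P56 are set here beside the genotype medians. These libraries already entered the relations above, so the values are not a separate observation. CN12 P56 wild-type libraries had 12.1, 8.14 and 6.0% mitochondrial counts and mSOD ones 4.56, 3.38 and 6.40%, while CN10 P56 had 9.34, 8.42 and 6.36% in wild type and 11.1, 10.1 and 10.9% in mSOD. The mitochondrial shares did not overlap between genotypes in CN10 and overlapped in CN12, and in both nuclei they moved opposite to the member medians. As a share of the other counts, members were 1.45 ± 0.335% in CN12 P56 wild type and 1.81 ± 0.224% in mSOD (SD, n = 3 each), and 2.45 ± 0.492% and 1.73 ± 0.253% in CN10. In the same CN12 comparison 30 of the 80 listed respiratory chain genes, not all of which were tested, had an unadjusted p under 0.05 (median 0.33). Of all genes 9.73% did. The mitochondrial ribosomal proteins had a median of 0.23, and translation factors one of 0.04. What part the mitochondrial share has in these differences was not tested. The CN10 excess over SC remained in the share of the other counts, at 2.54 ± 0.351% (n = 6) against 1.34 ± 0.261% (n = 10) in wild type.

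**Figure D5:**
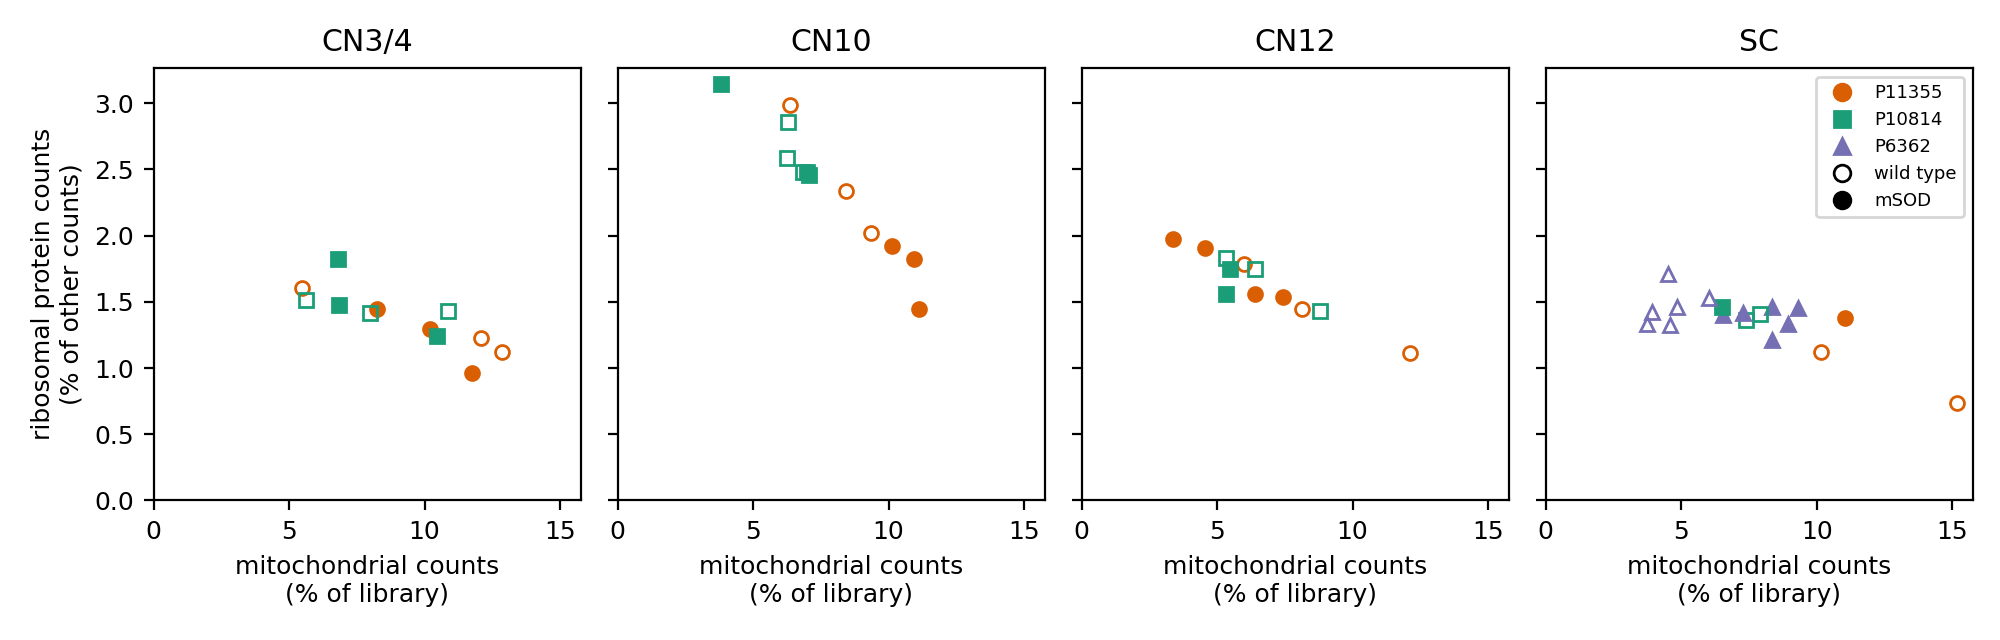
Member counts as a percentage of counts that are not mitochondrial (vertical axis) against mitochondrial counts as a percentage of the library (horizontal axis), 1 panel per nucleus. Each point is 1 library, open for wild type and filled for mSOD. The points fall from left to right in CN10 (r = -0.957), CN12 (r = -0.937) and CN3/4 (r = -0.821), and the SC library at 15.2% mitochondrial counts is far from the rest of SC.

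Many members have near-identical copies in the genome, and how reads that match several places were counted is not given in the sources used here. By BLAST against annotated pseudogene transcripts, 16 members had no match at 98% identity or more over 100 bases. Another 45 had 1 to 4 and 19 had 5 or more, up to 18 for Rpl29. Transcripts annotated as protein coding were not searched, so a copy here means an annotated pseudogene. The CN10 difference was seen in every class. In wild type 13 of the 13 tested members without a copy were called higher than in SC (median 1.12), 43 of 45 with 1 to 4 copies (1.02) and 15 of 19 with 5 or more (1.08). In mSOD the counts were 12 of 13, 35 of 45 and 15 of 19. Of the 40 tested members with no overlapping gene model 38 were called (median 1.08), and of the 37 with one 33 (median 1.04). The SC project change was also present in members without a copy, 7 of 13 lower and 0 higher (median -0.60).

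The table lists 297 genes named as pseudogenes of a member ("-ps" symbols), for 59 of the 80 members, and 6 of them, Rpl10-ps3 included, are annotated as protein coding. Of these, 158 had a median of at least 20 counts, and the median one reached 41.8% of its parent's counts. For 6 the "-ps" gene held at least as many counts as the parent, among them those of Rpl10 and Rpl23a: Rpl10-ps3 had a median of 957.5 counts beside 950.5 for Rpl10, and Rpl23a-ps3 had 631.5 beside 141.5 for Rpl23a. Counts of Rpl10, Rpl23a and other such members are therefore uncertain as levels of 1 gene. With these genes added, the wild-type share was 4.40% in CN10, 2.69% in CN12, 2.35% in CN3/4 and 2.29% in SC. Of the 189 tested, 154 were called higher in CN10 than in SC in wild type (median 1.06) and 103 in mSOD (0.80), and 0 lower in either. Gene lengths behind the deposited RPKM can also be off: counts and RPKM of Rps10 imply a length of 74.1 bases.

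The ribosomal proteins outside the rule moved with the members in CN10 only in part. In wild type, Rps3a1 rose by 1.11 ± 0.14 (adjusted p = 2.24e-09), Fau by 1.09 ± 0.22 (adjusted p = 9.33e-05) and Rack1, a scaffold on the small subunit, by 0.75 ± 0.16 (adjusted p = 0.000179, edgeR). Rpl22l1 (0.19), Rpl36al (-0.04) and Rpl7l1 (-0.09) were not called. In mSOD 4 of the 7 were called higher and 0 lower.

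Other lists of the translation machinery gave these counts, beside 18.4% of all genes called higher and 19.3% lower. In CN10 against SC in wild type, 8 of 77 mitochondrial ribosomal protein genes were higher and 10 lower (median 0.00; Mrpl33 1.54 and Mrpl23 1.47, Mrps22 -1.28 and Mrps2 -1.29). Of 51 ribosome biogenesis genes 0 were higher and 10 lower (median -0.25; Gnl3, a nucleolar GTPase, -1.13, and Nop56, of the box C/D particles, -1.02). Of 46 translation factors 6 were higher and 10 lower (median -0.07), with Eef1a1, the elongation factor that brings tRNA to the ribosome, at 4.65 ± 0.28 and Gspt1, a release factor, at -1.10. Of the 17 other mRNAs known to carry a TOP tract, which include Eef1a1, Fau and Rack1, 7 were higher and 3 lower (median 0.16; Tpt1 -0.89, Nap1l1 -0.64).

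Among 16 regulators of these mRNAs 0 were higher and 4 lower (median -0.04), among them Rps6kb1, the S6 kinase, at -1.32 and Mtor at -0.60. Of 76 respiratory chain genes 8 were higher and 17 lower (median -0.09). In mSOD the medians were 0.00 for mitochondrial ribosomal proteins (14 higher, 8 lower), -0.22 for biogenesis (1 higher, 14 lower) and -0.12 for the respiratory chain (3 higher, 10 lower). Of all genes 14.1% were called higher and 17.7% lower in that comparison. In CN12 against SC in mSOD, by contrast with CN10, 34 respiratory chain genes were called higher and 1 lower (median 0.48), beside the 42 members, and 12 mitochondrial ribosomal protein genes higher and 2 lower (median 0.33). There 7.33% of all genes were called higher and 8.32% lower.

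CN10 libraries also differed from SC in cell type markers. Chat, which makes acetylcholine, was present in all libraries, at 70.0 to 124 CPM in CN10 and 45.7 to 108 in SC. Of 10 motor neuron markers tested 1 was called higher in CN10 wild type (Prph, 0.75) and 5 lower (among them Nefh -5.19 and Nefm -3.64). Their summed level was 2397 to 3234 CPM in CN10 and 8542 to 18590 in SC. The SC sum was carried by the neurofilaments Nefm (median 7111 CPM in SC and 748 in CN10) and Nefh (3377 and 79.0). Of the other markers, Chat, Isl1 and Prph had higher medians in CN10, and Slc18a3, Slc5a7, Ache, Isl2 and Mnx1 lower ones. Mnx1 was at 0 in 11 of 12 CN10 libraries and Isl2 in 7, and in CN3/4 in 10 and 9 of 12. Nefh, a heavy neurofilament of large axons, held 54.8 to 96.5 CPM in CN10 and 2029 to 4533 in SC. Th, a marker of catecholamine neurons, held 13.5 to 86.1 CPM in CN10 and was at 0 in all 18 SC libraries.

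Summed microglial markers ran from 19.1 to 52.6 CPM in CN10 and 0 to 115 in SC (2 higher and 0 lower of 11), astrocyte markers from 368 to 675 against 670 to 1774 (3 higher, 2 lower of 10), oligodendrocyte markers from 102 to 202 against 205 to 822 (1 higher, 7 lower of 11), endothelial markers from 2.58 to 11.97 against 0.880 to 11.2 (0 of 4), and markers of other neurons from 35.2 to 181 against 45.7 to 683 (2 higher, 3 lower of 8). The astrocyte sum was carried by S100b (median 711.7 CPM in SC and 19.4 in CN10) and Aldoc (285 and 355), while Slc1a3 (0.834 and 29.3) and Gja1 (5.47 and 24.0), 2 markers named after their values were seen, had higher medians in CN10. Depth differed as well, at 3162103 to 7847784 counts in CN10 and 1071477 to 4732613 in SC. The part of these differences in the member values was not tested.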

How the data were processed

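The series measured polyA RNA in 54 Smart-seq2 libraries from laser-captured neurons, per the labels' protocols. Reads were aligned with STAR 2.7.0e to mm39 (GRCm39), per the submitters' processing notes. The counter, its annotation and its treatment of strand and of multiply mapping reads are not given in the sources used here. The deposited files hold raw counts per gene and the authors' RPKM values. Counts were used for every test, and RPKM only to compare levels between genes. Library totals ran from 1071477 to 8877994 counts, and no column of values was left unused.

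Members were matched by Ensembl identifier, with biotypes from GENCODE M21. One edgeR 4.0.16 fit (R 4.3.3) covered all 54 libraries, with TMM scaling, filterByExpr on the 16 groups, a term per group and per project, and the robust quasi-likelihood F test, two-sided. Benjamini-Hochberg adjustment ran over 18493 mouse genes, and an adjusted p under 0.05 is a call. The human SOD1 entry was counted in library sizes but not tested. SE is the absolute log2 change over the square root of F. CPM is counts times 1e6 over the TMM-scaled library size, while shares use the raw total. Scripts were tested on simulated data. Alternatives were RLE size factors, no filter, DESeq2 1.42.0, no project term, TMM without the members, SOD1 out of the library sizes, single projects and leaving out each library. Copies were sought among annotated pseudogene transcripts with blastn 2.17.0. Start sequences came from RefSeq's GRCm38.p6 table, which has another build than the files, so no coordinates are given.

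Named were, per comparison, up to 3 called members a direction by smallest p (with none called, the member with the smallest p), the 5 highest and 5 lowest by RPKM, the 5 called most often, paralogs, and up to 2 genes a direction from other lists. A few genes that this rule names are not reported here. Members and lists were chosen with earlier results of these data known.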

Additional observations from a re-analysis of the deposited data

Results flagged for a closer look

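In the SC groups of 5 libraries, single libraries of 3 members stood apart from the other 4 libraries of their group by Dixon's criterion at 95%. This is 3 of 90 groups examined, and chance alone marks about 1 in 20. Rpl18 had 34.79 CPM in SC P56 wild-type replicate 1, against 97.92 to 122.3 in the others. That library also had the lowest summed member share (0.623%) and the highest mitochondrial share in SC P56 wild type (15.2%), and the part of either was not tested. Rpl35 had 271.6 CPM in SC P56 mSOD replicate 3, against 199.9 to 216.0. Rps27 had 255.1 CPM in SC P112 wild-type replicate 4, against 150 to 159.9.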

How the results depend on the processing

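The CN10 excess over SC kept its direction and stayed within 1.5 times its count under every alternative run. It gave 71 calls with RLE size factors, 69 without the filter, 72 with DESeq2 and 69 higher with 1 lower without the project term in wild type, and 61, 63 and 52 higher with 1 lower without the filter, with DESeq2 and without the project term in mSOD. Leaving out 1 library gave 64 to 71 calls in wild type and 54 to 64 in mSOD, 65 to 73 against CN3/4 and 53 to 64 against CN12. Smaller counts moved more. For CN3/4 against SC in wild type (5 calls) they were 3 without the filter, 8 without the project term, 1 within P10814, 0 within P11355 and 2 to 6 leaving out 1 library. For CN12 against SC in wild type (6 calls) they were 3 without the filter, 0 within P10814, 0 within P11355, 3 without P6362 (chosen after seeing the data) and 1 to 14 leaving out 1 library. CN3/4 in mSOD (5 calls) gave 2 without the filter and 2 to 5 leaving out 1 library, and CN12 in mSOD (42 calls) 16 without the project term and 30 to 50. P11355 against P6362 (24 calls) gave 14 without the filter and 2 to 33 leaving out 1 library (15 without SC P56 wild-type replicate 3, 14 without replicate 5), and P10814 (2 calls) 0 to 3. The difference between genotypes for CN12 against SC (0 calls) gave 1 with DESeq2 and 0 to 1 leaving out 1 library. Rpl12 was called in it without CN12 P56 wild-type replicate 3 (0.78). CN12 P56 mSOD against wild type gave 1 call without the filter, and the genotype comparisons gave 0 to 0 calls leaving out 1 library. Adding the genes named as pseudogenes moved the wild-type shares to 2.352% (CN3/4), 4.402% (CN10), 2.686% (CN12) and 2.295% (SC). Over the named members, 1300 values kept direction and call, 5 gained and 77 lost the call, and 0 reversed. Except where fewer libraries or fewer genes entered by construction, the cause was not tested. Members with few reads or many copies limit what single genes show. No paired analysis was possible because the labels carry no replicate numbers and do not tie libraries to animals.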
